A study of Mus musculus with 18 samples.

Results

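The 38 genes described here encode the constitutive proteasome of the mouse, the protease complex that degrades ubiquitin-tagged proteins, with its assembly chaperones and activators. They were chosen by gene symbol, with earlier results of these data known. They comprise 7 alpha subunits (Psma1 to Psma7) and 7 beta subunits (Psmb1 to Psmb7) of the 20S core particle, 6 ATPases (Psmc1 to Psmc6) and 11 non-ATPase subunits (Psmd1, Psmd2, Psmd3, Psmd4, Psmd6, Psmd7, Psmd8, Psmd11, Psmd12, Psmd13 and Psmd14) of the 19S regulatory particle, 3 chaperones of 19S assembly (Psmd5, Psmd9 and Psmd10) and 4 activators that bind the core particle (Psme1 to Psme4). A gene-level row with 1 symbol was found for 32 of them, among 14847 named genes. Exon-level probe sets with 1 symbol were found for 37 of them, 461 of 229581 probe sets in all. Psma4, Psma5, Psmb3, Psmb5 and Psme2 were therefore described from their probe sets only, and Psmd1 was not analysed here.

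RNA of mouse embryonic fibroblasts, connective tissue cells grown from embryos, was measured on exon arrays, which carry separate probe sets for the exons of a gene. The 3 genotypes were AGO2 null (AGO2 -/-), Dicer null and wild type, each with 3 arrays, and every array gave 1 gene-level and 1 exon-level sample. Argonaute 2 is the small-RNA-guided protein that silences target transcripts, and Dicer cuts microRNA precursors into mature microRNAs. All cells received the same treatment, 3 days of growth in medium with 7% fetal calf serum to subconfluency. Per the labels, 1 laboratory supplied both the Dicer null and the wild-type cells and a different one the AGO2 null cells, so source and genotype cannot be told apart for AGO2 null cells. The labels call the arrays biological replicates but name 1 line for each genotype and no separate cultures or animals, so the spread behind the p-values is that of these samples and may be technical in part.

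The 26S proteasome consists of the barrel-shaped 20S core, whose beta subunits carry the proteolytic sites, capped by the 19S particle, which binds ubiquitin chains, removes them, unfolds the substrate and feeds it into the core. Its subunits are made in fixed proportions, and in mammals their genes are induced together by the transcription factor NRF1 (Nfe2l1) when proteasome activity falls short. Interferons replace the 3 catalytic beta subunits by the immunoproteasome subunits Psmb8, Psmb9 and Psmb10 and raise the PA28 activators Psme1 and Psme2, so the last of these are constitutive only in part.

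Values are deposited log2 values, and a difference of 1 is a 2-fold change. Sample medians lay between 6.28 and 6.37 at the gene level and between 6.93 and 7.10 at the exon level, and samples correlated across rows at 0.985 to 0.993 when they shared a genotype and at 0.957 to 0.972 when they did not. Of the targeted genes, Ago2 fell by 1.46 on the log2 scale in AGO2 null cells and Dicer1 by 0.80 in Dicer null cells; whether their probes lie in the deleted parts was not tested. Replicates of the proteasome genes had a median SD of 0.065 (AGO2 null), 0.042 (Dicer null) and 0.069 (wild type), against 0.126, 0.075 and 0.106 over all rows. Of 10 fibroblast markers measured, 8 were lower and none was higher in Dicer null cells, among them Col1a2 (-3.68) and Thy1 (-3.16), and the mean of the markers was 8.76 to 8.82 there, 10.23 to 10.29 in wild-type and 10.5 to 10.63 in AGO2 null samples. Of 4 epithelial markers measured, the keratin Krt18 was 4.30 higher in Dicer null cells, and Epcam (-0.02), Cdh1 (0.09) and Cldn4 (0.00) did not pass. Their mean was 7.39 to 7.45 there against 6.28 to 6.44 in the wild type, a shift carried by Krt18. The 5 leukocyte markers averaged 4.93 to 5.21 in every sample, with group means of 3.87 to 3.91 for Ptprc, which defines leukocytes, but Cd68 was lower in both null lines (-0.77 in AGO2 null, -0.75 in Dicer null) from a wild-type mean of 7.84, and Csf1r was higher in Dicer null cells (1.11). In AGO2 null cells 6 of the 10 fibroblast markers were higher, among them Pdgfra (1.04), and 1 was lower, Pdgfrb (-0.44). Krt18 was 0.59 higher in AGO2 null cells. Of 4 endothelial markers measured, Kdr was higher in AGO2 null cells (1.25). Of 3 neural markers measured, Map2 was lower in both null lines (-1.01 in AGO2 null, -2.39 in Dicer null). The other endothelial and neural markers did not pass. The part of these marker differences in the results below was not tested, and in such bulk RNA fewer cells of a type and less RNA per cell cannot be told apart.

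The RNA of most proteasome genes lay close to the wild-type level in both null lines. In AGO2 null cells 6 of the 32 genes were higher, none was lower and 26 did not pass the test (Benjamini-Hochberg adjusted p under 0.05 over all rows, limma). Dicer null cells had 6 higher and 2 lower genes, and 24 did not pass. Both comparisons use the same wild-type samples, so calls shared by the null lines are not independent of each other. Over all 23332 gene-level rows, 11.8% were called higher and 9.17% lower in AGO2 null cells, and 11.2% were called higher and 15.7% lower in Dicer null cells. No proteasome gene changed by 2-fold in either comparison. The differences ran from -0.12 to 0.60 in AGO2 null cells with a median of 0.11, against 0.02 over all rows, and from -0.40 to 0.43 in Dicer null cells with a median of 0.05, against -0.01 over all rows. At an unadjusted limma p under 0.05, 11 of the 32 genes were higher and 0 lower in AGO2 null cells. Of the 14847 named genes, 3076 were higher and 2267 lower at that threshold.

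**Figure D1:**
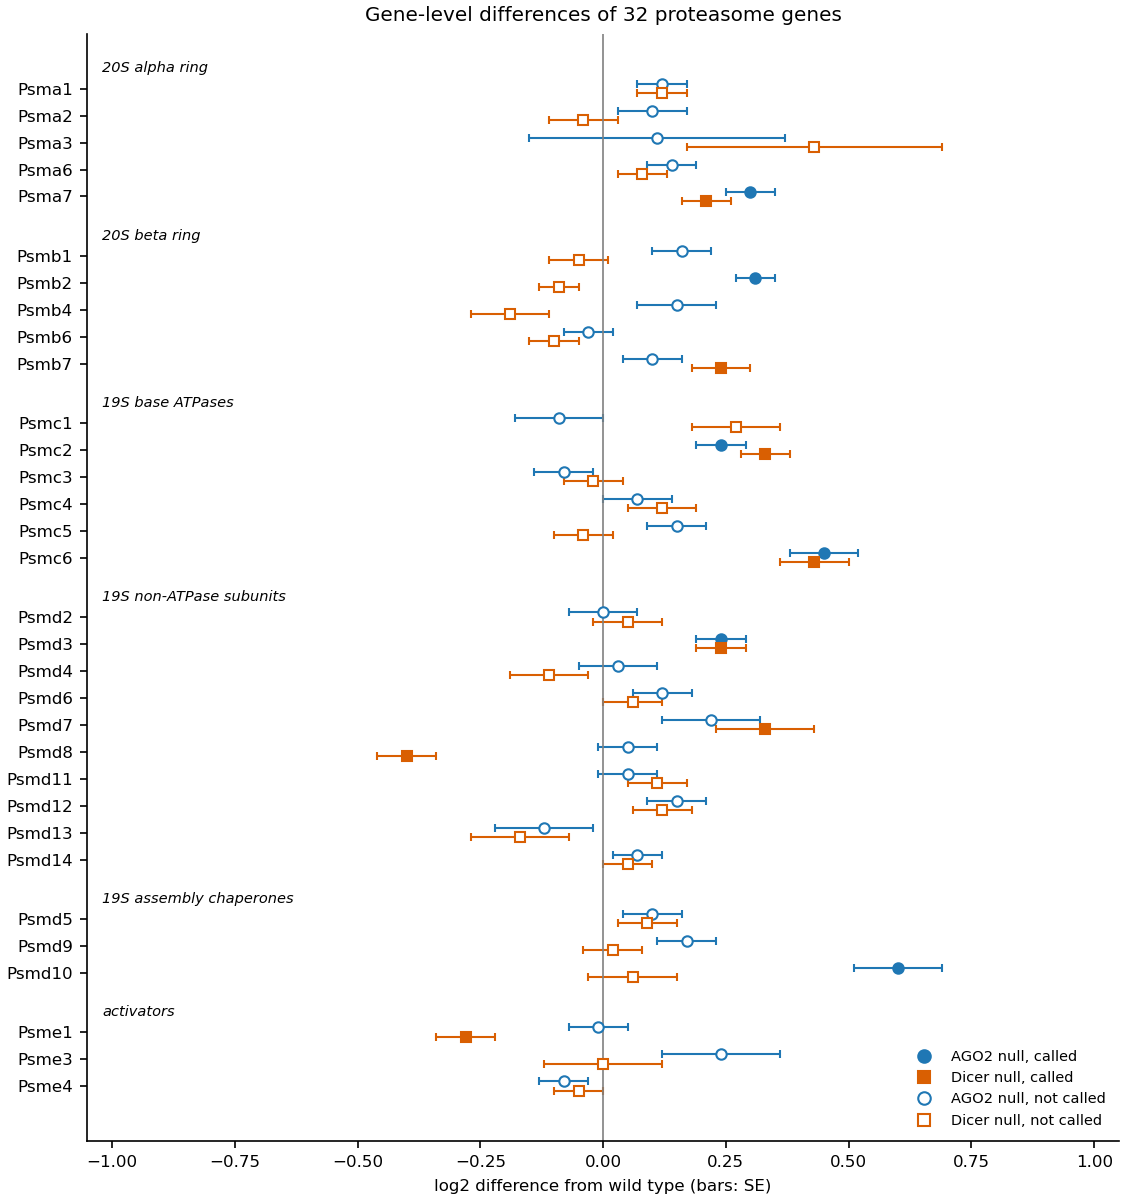
Log2 difference from wild type (x axis, bars are the SE) of the 32 proteasome genes with a gene-level row, by role, in AGO2 null (circles) and Dicer null (squares) cells, with n = 3 samples a group. Filled symbols passed the adjusted test: 6 in AGO2 null cells, all to the right of 0, and 8 in Dicer null cells, 6 to the right and 2 to the left.

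The direction in AGO2 null cells rested in part on the scaling. With quantile normalization of the 9 samples the median over the 32 genes was -0.009, and 3 genes were called higher and 2 lower (Psmc3 and Psme4). Over all rows the calls in AGO2 null cells were then 2284 higher and 2721 lower, against 2764 and 2139 in the values as deposited. In Dicer null cells the proteasome calls stayed at 6 higher and 2 lower with quantile normalization, but Psmd7 was lost and Psmc1 gained. With each sample centred on its median they were 8 and 2. There the split over all rows turned from 2605 higher and 3659 lower to 3461 and 2866. Groups whose samples did not overlap were found for 12 of 32 genes in AGO2 null and 17 of 32 in Dicer null cells, against 33.2% and 42.8% of all rows. The share among proteasome genes was thus 37.5% in AGO2 null and 53.1% in Dicer null cells, and its difference from the array as a whole was not tested.

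Among genes that did not pass, 95% intervals of the difference were narrow. In AGO2 null cells 23 of the 26 had both bounds within 0.4 of 0, and the widest bounds were 0.72 for Psma3, 0.52 for Psme3 and 0.44 for Psmd7. In Dicer null cells 22 of 24 lay within 0.4, and only the interval of Psma3 reached 2-fold, with a bound of 1.04. The gene-level row of Psma3 had a mean of 4.37 and equalled 1 dim probe set of the gene in every sample within 0.01, whereas the median of its 16 probe sets was 11.7, so this row says little about the gene. No other member had such a row.

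The exon-level probe sets gave a second view of the same arrays. Of 461 probe sets, 42 were higher and 3 lower in AGO2 null cells, against 9.07% and 6.35% of all probe sets. Dicer null cells had 20 higher and 11 lower probe sets, against 8.93% and 12.2%. Of the 37 genes, 18 had at least 1 higher probe set in AGO2 null cells and 3 had a lower one. The most higher ones were in Psmc6 (11), Psmd10 (7) and Psmc2 (6). The share of all genes with such a probe set, which depends on the number of probe sets per gene, was not computed. In Dicer null cells 7 genes had a higher one and 4 a lower one, and Psmd8 held 8 of the 11 lower probe sets. Per gene, the median over probe sets was tested too, where 13.4% of 16358 genes were called higher and 7.95% lower in AGO2 null cells, and 11.3% and 17.8% in Dicer null cells. By this measure 6 of 37 members were higher in AGO2 null cells, and 4 were higher and 3 lower in Dicer null cells.

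In the alpha ring, which forms the outer gate of the core particle, Psma7 was the gene called in both null lines. Psma7 measured 11.12, 11 and 11.09 in the wild-type samples, 11.35, 11.41 and 11.33 in AGO2 null and 11.26, 11.30 and 11.27 in Dicer null samples. All 6 null samples lay above all 3 wild-type samples. The difference was 0.30 ± 0.05 (SE) in AGO2 null cells, with a limma adjusted p of 0.00402, and 0.21 ± 0.05 in Dicer null cells, with an adjusted p of 0.015. With quantile normalization the AGO2 null difference was 0.17 and was not called, and without Dicer null replicate 2 the Dicer null difference was 0.19 and was not called, nor was it in the median of the probe sets (0.26, adjusted p 0.0562). Psma5, seen through the median of its 4 probe sets, measured 10.97, 10.98 and 11.04 in wild-type, 11.24, 11.41 and 11.29 in AGO2 null and 11.11, 11.13 and 11.10 in Dicer null samples. It was 0.31 ± 0.09 higher in AGO2 null cells (adjusted p 0.0284), and the 0.11 ± 0.09 in Dicer null cells did not pass (0.401). Psma1, Psma2, Psma4 and Psma6 did not pass in either comparison, with differences between -0.04 and 0.14.

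The beta ring holds the proteolytic sites in Psmb5, Psmb6 and Psmb7, which cut after hydrophobic, acidic and basic residues in turn. Psmb6 measured 11.31, 11.34 and 11.30 in wild-type, 11.22, 11.32 and 11.32 in AGO2 null and 11.17, 11.28 and 11.20 in Dicer null samples. Dicer null samples lay just below the wild type without overlap, but neither difference passed: it was -0.03 in AGO2 null cells, with a 95% interval of -0.15 to 0.08, and -0.10 in Dicer null cells, with an interval of -0.21 to 0.02. Psmb7 measured 11.39, 11.49 and 11.54 in wild-type, 11.51, 11.60 and 11.61 in AGO2 null and 11.71, 11.73 and 11.70 in Dicer null samples. It was higher in Dicer null cells by 0.24 ± 0.06 (adjusted p 0.0141), a call lost without Dicer null replicate 2 (0.23) and in the median of its probe sets (0.19). In AGO2 null cells the groups overlapped and the difference of 0.10 did not pass. Psmb5, through the median of its 8 probe sets, measured 10.50, 10.54 and 10.42 in wild-type, 10.62, 10.75 and 10.61 in AGO2 null and 10.51, 10.53 and 10.49 in Dicer null samples. Its differences of 0.18 ± 0.09 and 0.03 ± 0.09 did not pass, with adjusted p-values of 0.201 and 0.873.

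Among the beta subunits with no proteolytic site, Psmb2 set the null lines apart. Psmb2 measured 10.46, 10.49 and 10.49 in wild-type, 10.76, 10.82 and 10.79 in AGO2 null and 10.38, 10.40 and 10.40 in Dicer null samples. The 3 genotypes did not overlap, with AGO2 null samples highest and Dicer null samples lowest. It was higher in AGO2 null cells by 0.31 ± 0.04 (1.24-fold, adjusted p 0.0013), a call kept under all 20 alternatives tried, although the difference was 0.18 with quantile normalization, with 3 higher calls among its 7 probe sets. In Dicer null cells the difference of -0.09 ± 0.04 did not pass (adjusted p 0.153). Psmb1, Psmb3 and Psmb4 did not pass against the wild type, with differences between -0.19 and 0.16.

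The ATPase ring at the base of the 19S particle unfolds substrates and opens the gate of the core. Psmc6, the ATPase Rpt4, and Psmc2, the ATPase Rpt1, were higher in both null lines. Psmc6 measured 9.77, 9.72 and 9.92 in wild-type, 10.21, 10.23 and 10.32 in AGO2 null and 10.27, 10.25 and 10.19 in Dicer null samples. The 2 null lines covered the same range, and every null sample exceeded every wild-type sample. It was 0.45 ± 0.07 higher in AGO2 null cells (1.36-fold, adjusted p 0.00238) and 0.43 ± 0.07 higher in Dicer null cells (1.35-fold, adjusted p 0.00168). These differences share the 3 wild-type samples, and both calls held under every alternative tried. All 17 probe sets of Psmc6 were at or above the wild-type mean in both lines, from 0.00 to 0.86 in AGO2 null and from 0.16 to 0.69 in Dicer null cells, and 11 and 9 of them were called higher.

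Psmc2 measured 9.99, 9.82 and 9.92 in wild-type, 10.12, 10.18 and 10.15 in AGO2 null and 10.22, 10.27 and 10.21 in Dicer null samples. The samples fell in 3 steps without overlap, wild type lowest and Dicer null highest. It was higher by 0.24 ± 0.05 in AGO2 null cells (adjusted p 0.0156) and by 0.33 ± 0.05 in Dicer null cells (adjusted p 0.00272). The Dicer null call held under every alternative tried, while the AGO2 null call was lost with quantile normalization, where the difference was 0.12, and in a fit of the 6 samples compared. The median of its probe sets gave 0.47 and 0.57. Calls to the higher side were made for 6 of its 17 probe sets in AGO2 null and for 5 in Dicer null cells. Psmc1, Psmc3, Psmc4 and Psmc5 did not pass against the wild type at the gene level, with differences from -0.09 to 0.27. Psmc1 passed in Dicer null cells in the median of its 12 probe sets, with a difference of 0.36 ± 0.12 and an adjusted p of 0.0472.

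The promoter of Psmc6 is shown because this gene rose in both null lines. The window runs from 250 bases before to 50 bases after the gene's start in RefSeq, assembly GRCm38.p6, chr14:45329574-45329873, plus strand. Capitals mark a match to TGACNNNGC, the core of the antioxidant response element through which NRF-type factors bind, as its reverse complement, at -227 from the start:
Psmc6: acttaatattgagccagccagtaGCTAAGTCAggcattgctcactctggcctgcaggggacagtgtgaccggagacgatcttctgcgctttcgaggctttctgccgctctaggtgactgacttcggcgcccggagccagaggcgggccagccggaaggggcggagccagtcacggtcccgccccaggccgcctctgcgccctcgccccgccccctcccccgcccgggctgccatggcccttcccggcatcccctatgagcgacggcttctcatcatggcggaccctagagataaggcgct
Such a match, searched on both strands, was present in 6 of the 32 member genes with a window (18.8%: Psmb5, Psmb6, Psmc6, Psmd12, Psmd9 and Psme4). By window it was present in 6 of 35 member windows and in 12.4% of all 32851 promoter windows. Of these 6 genes, Psmc6 was the one called at the gene level in a null line against the wild type, in the values as deposited. Psmb5 had no gene-level row.

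Of the non-ATPase subunits of the 19S particle, Psmd3 was higher in both null lines, Psmd7 was higher and Psmd8 lower in Dicer null cells. Psmd8, the lid subunit Rpn12, measured 10.11, 10.02 and 10.08 in wild-type, 10.06, 10.18 and 10.11 in AGO2 null and 9.70, 9.73 and 9.58 in Dicer null samples. The Dicer null samples lay below all others, and AGO2 null and wild-type samples overlapped. Psmd8 fell by 0.40 ± 0.06 on the log2 scale in Dicer null cells, to 0.758 of the wild-type level (adjusted p 0.00146), and this call held under every alternative tried. All 11 of its probe sets were below the wild type, from -0.64 to -0.26, and 8 were called lower. In AGO2 null cells its difference was 0.05 (adjusted p 0.642).

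Psmd3, the lid subunit Rpn3, measured 8.27, 8.24 and 8.36 in wild-type, 8.48, 8.60 and 8.51 in AGO2 null and 8.57, 8.54 and 8.48 in Dicer null samples. Both null lines lay above the wild type without overlap, each by 0.24 ± 0.05, with adjusted p-values of 0.017 and 0.0123. The AGO2 null call was lost without wild-type replicate 1 (0.23) or 2 (0.22) with quantile normalization (0.15) and in a fit of the 6 samples compared (0.24), the Dicer null call without Dicer null replicate 1 (0.23), and both in the median of its probe sets (0.27 and 0.19). Psmd7, the lid subunit Rpn8 that partners the deubiquitinase Psmd14, measured 10.21, 9.98 and 9.98 in wild-type, 10.14, 10.45 and 10.24 in AGO2 null and 10.38, 10.41 and 10.38 in Dicer null samples. The Dicer null samples were above the wild type by 0.33 ± 0.10 (adjusted p 0.0359), whereas the AGO2 null samples overlapped it. That call was lost in 6 of the 9 fits that left out 1 sample, in which the difference was 0.29 to 0.34. It was also lost with quantile normalization (0.31).

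The other non-ATPase subunits did not pass in either line. Psmd14, which removes ubiquitin chains from substrates, differed by 0.07 in AGO2 null and 0.05 in Dicer null cells. Psmd2, the large scaffold subunit Rpn1, differed by 0.00 and 0.05, and the ubiquitin receptor Psmd4 by 0.03 and -0.11. Psmd6, Psmd11 and Psmd12, which belong to the lid, had differences between 0.05 and 0.15 in both lines, and Psmd13 of the lid had -0.12 and -0.17. Each of these differences was within 0.17 of the wild type.

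**Figure D2:**
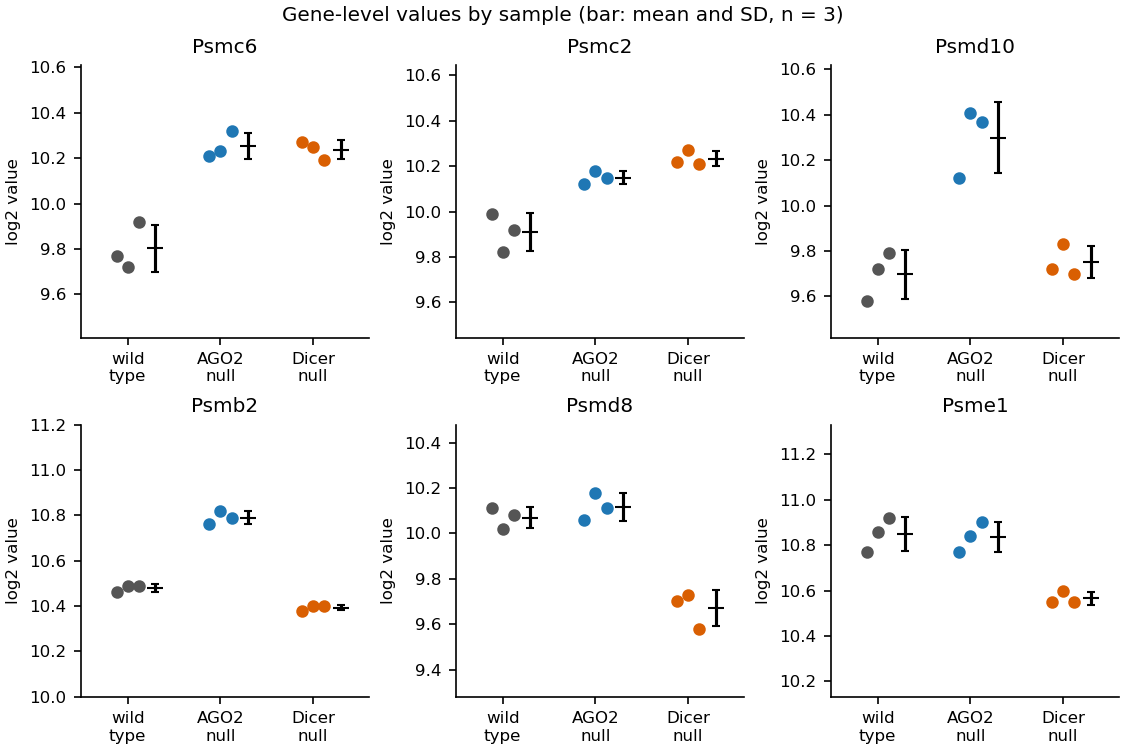
Gene-level log2 values (y axis) of 6 proteasome genes in each of the 9 samples, by genotype; points are samples and bars the mean and SD of 3 samples, on axes of equal span. Psmc6 and Psmc2 are higher in both null lines, Psmd10 and Psmb2 in AGO2 null samples, and Psmd8 and Psme1 are lower in Dicer null samples.

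The largest rise among the 32 genes was that of Psmd10, or gankyrin, which escorts ATPase subunits during assembly of the 19S base and also binds cell cycle regulators. Psmd10 measured 9.58, 9.72 and 9.79 in wild-type, 10.12, 10.41 and 10.37 in AGO2 null and 9.72, 9.83 and 9.70 in Dicer null samples. AGO2 null samples were above all others, and Dicer null and wild-type samples overlapped. It was 0.60 ± 0.09 higher in AGO2 null cells (1.52-fold, adjusted p 0.00313), a call that held under every alternative tried, and the difference of 0.06 in Dicer null cells did not pass. All 8 of its probe sets were above the wild type in AGO2 null cells, from 0.34 to 0.82, and 7 were called. The other 2 chaperones of base assembly, Psmd5 and Psmd9, had differences of 0.10 and 0.17 in AGO2 null cells and of 0.09 and 0.02 in Dicer null cells, none of which passed.

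The Psmd10 promoter is shown as that of the gene with the largest rise. The RefSeq window in GRCm38.p6 is chrX:140956662-140956961, minus strand, written in the direction of transcription. Capitals mark 3 CCAAT boxes, the motif bound by NF-Y, at -230 as written and at -47 and -24 as the reverse complement ATTGG, counted from the start:
Psmd10: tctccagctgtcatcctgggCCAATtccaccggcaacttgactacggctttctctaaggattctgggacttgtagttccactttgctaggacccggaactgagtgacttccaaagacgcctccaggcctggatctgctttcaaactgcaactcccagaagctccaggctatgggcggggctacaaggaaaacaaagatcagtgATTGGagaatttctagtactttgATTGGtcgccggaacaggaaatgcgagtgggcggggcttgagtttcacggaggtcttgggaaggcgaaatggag
At least 1 CCAAT was found in 12 of 32 member genes (37.5%). By window it was found in 12 of 35 member windows and in 37.4% of all windows.

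**Figure D3:**
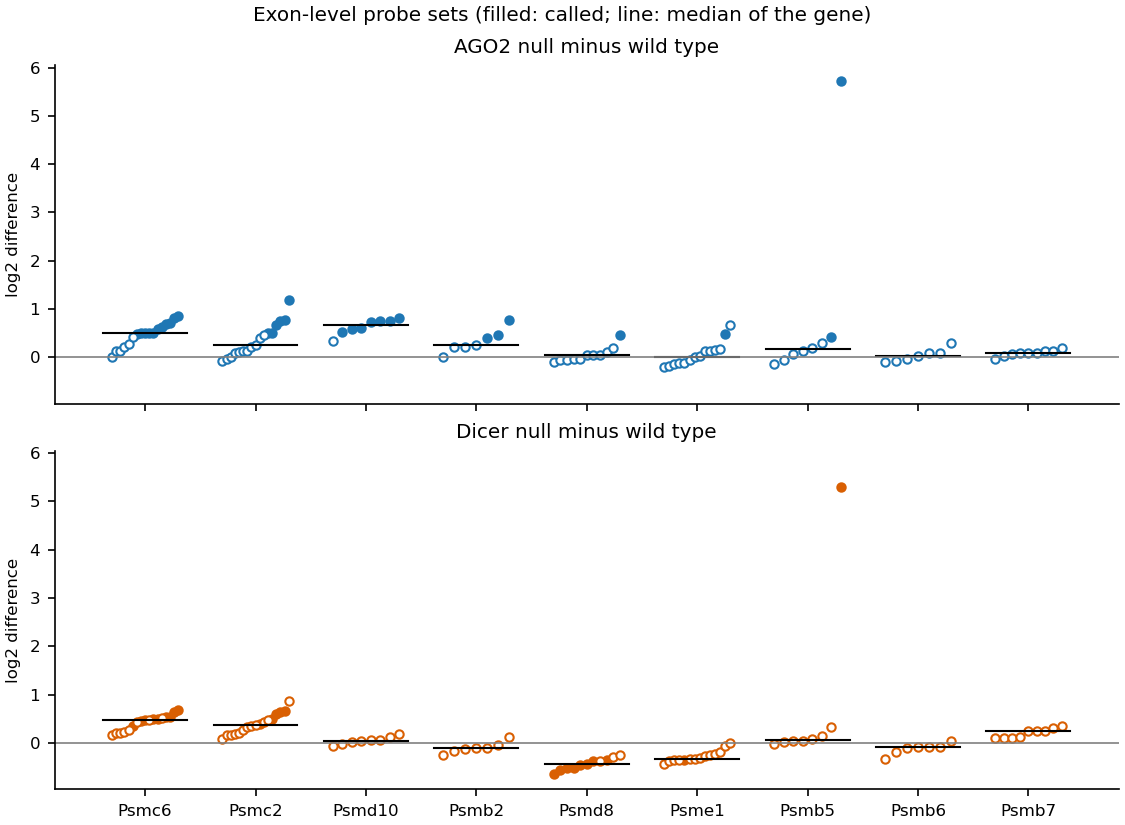
Log2 difference from wild type (y axis) of every exon-level probe set of 9 proteasome genes, AGO2 null above and Dicer null below; filled points passed the adjusted test and lines are gene medians. The probe sets of Psmc6 lie at or above 0 in both panels and those of Psmd10 in the upper one, those of Psmd8 lie below 0 in the lower panel, and 1 probe set of Psmb5 stands above 5 in both.

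Of the activators, which open the core particle without ATP, Psme1 was lower in Dicer null cells. Psme1, the PA28 alpha subunit, measured 10.77, 10.86 and 10.92 in wild-type, 10.77, 10.84 and 10.90 in AGO2 null and 10.55, 10.60 and 10.55 in Dicer null samples. The AGO2 null samples covered the wild-type range and the Dicer null samples lay below it. Psme1 fell by 0.28 ± 0.06 in Dicer null cells, to 0.823 of the wild-type level (adjusted p 0.00821), under every alternative tried, and differed by -0.01 in AGO2 null cells. All 14 of its probe sets were lower in Dicer null cells, from -0.44 to -0.01, and 1 was called. Its partner Psme2, PA28 beta, through the median of 2 probe sets, measured 9.55, 9.48 and 9.61 in wild-type, 9.53, 9.94 and 9.64 in AGO2 null and 9.16, 9.24 and 9.12 in Dicer null samples. It fell by 0.38 ± 0.12 in Dicer null cells (adjusted p 0.0353). The nuclear activator Psme3 (0.24 and 0.00) and the large activator Psme4 (-0.08 and -0.05) did not pass.

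The catalytic subunits of the immunoproteasome, which are no members of the constitutive complex, were also lower in Dicer null cells. Psmb8, the counterpart of Psmb5, measured 7.31, 7.34 and 7.01 in wild-type, 6.95, 7.28 and 6.93 in AGO2 null and 5.90, 5.84 and 5.77 in Dicer null samples. Psmb9, the counterpart of Psmb6, measured 6.69, 6.92 and 6.86 in wild-type, 6.59, 6.64 and 6.53 in AGO2 null and 5.89, 5.70 and 5.88 in Dicer null samples. Psmb10, the counterpart of Psmb7, measured 7.82, 7.74 and 7.78 in wild-type, 7.77, 8.30 and 8.0 in AGO2 null and 7.22, 7.30 and 7.33 in Dicer null samples. For all 3 genes the Dicer null samples lay below every other sample. In Dicer null cells Psmb8 fell by 1.38 ± 0.12 (adjusted p 8.97e-05), Psmb9 by 1.00 ± 0.08 (5.07e-05) and Psmb10 by 0.50 ± 0.12 (0.0172). The Psmb10 call was lost in the median of its 9 probe sets, where the difference was -0.23 and the adjusted p 0.293. In AGO2 null cells none passed, with differences of -0.17, -0.24 and 0.24. The AGO2 null samples of Psmb9 nevertheless lay below all wild-type samples (limma adjusted p 0.0762).

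**Figure D4:**
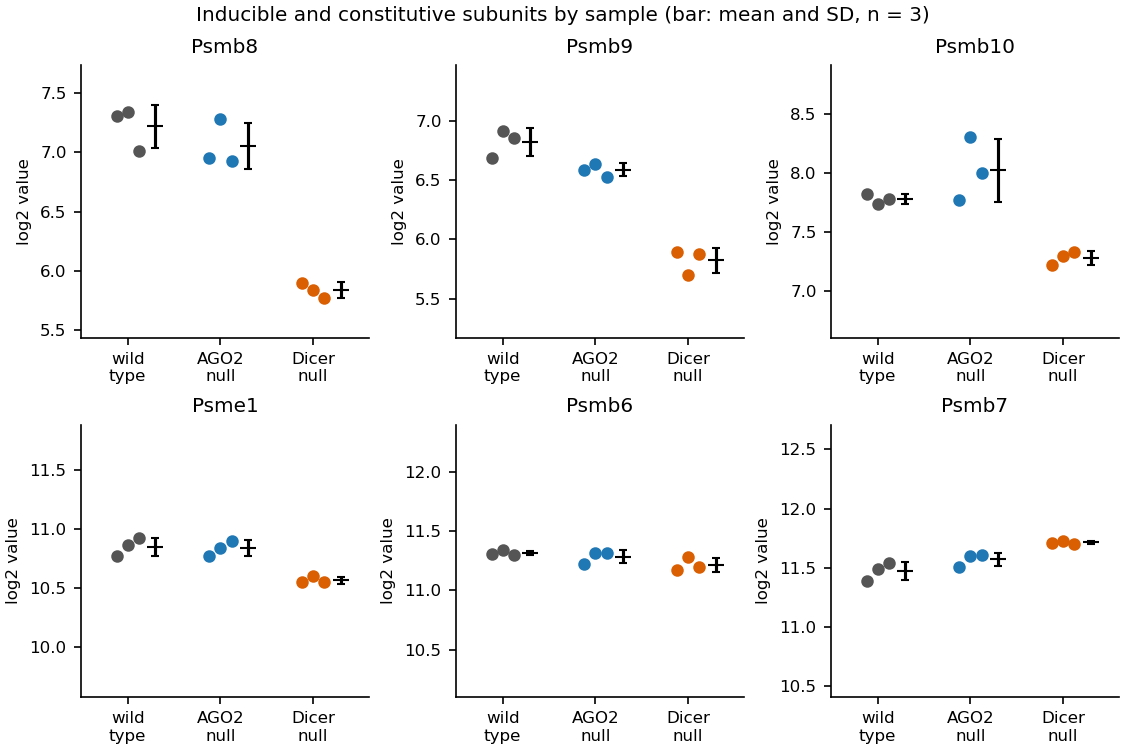
Gene-level log2 values (y axis) of 3 immunoproteasome subunits, the PA28 subunit Psme1 and 2 constitutive catalytic subunits in each of the 9 samples, by genotype; points are samples and bars the mean and SD of 3 samples, on axes of equal span. Psmb8, Psmb9, Psmb10 and Psme1 are lowest in the Dicer null samples, Psmb7 is highest there, and Psmb6 differs by 0.10 or less.

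Genes of interferon signalling and antigen presentation moved beside them. Of the 8 measured of 12 listed, 7 were lower and none higher in Dicer null cells, and 4 were lower and 1 higher in AGO2 null cells. Over all gene-level rows, 15.7% were called lower and 11.2% higher in Dicer null cells, and 9.17% and 11.8% in AGO2 null cells. The interferon-induced Ifit1 differed by -5.86 in Dicer null and -1.47 in AGO2 null cells, the signalling factors Irf9 by -2.00 and -0.70 and Stat2 by -1.57 and -1.16, and the peptide transporter Tap1 by -1.03 and -0.47. The higher gene in AGO2 null cells was Tapbp, the chaperone tapasin (0.31). The part of these interferon and antigen presentation genes in the values of Psme1 and of the immunoproteasome subunits was not tested.

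The promoters of Psme1 and of Psmb8 are shown side by side as those of the called activator and of the immunoproteasome gene with the largest fall. Both are RefSeq windows of GRCm38.p6 on the plus strand, chr14:55578244-55578543 for Psme1 and chr17:34197945-34198244 for Psmb8. Capitals mark TTTCGCTTTC at +10 in Psme1, the reverse complement of an interferon-response motif, which was searched as GAAA and GAAA with 2 bases of any kind between them, and TTCCCAGAA at -97 in Psmb8, a match to the STAT-type motif TTCNNNGAA:
Psme1: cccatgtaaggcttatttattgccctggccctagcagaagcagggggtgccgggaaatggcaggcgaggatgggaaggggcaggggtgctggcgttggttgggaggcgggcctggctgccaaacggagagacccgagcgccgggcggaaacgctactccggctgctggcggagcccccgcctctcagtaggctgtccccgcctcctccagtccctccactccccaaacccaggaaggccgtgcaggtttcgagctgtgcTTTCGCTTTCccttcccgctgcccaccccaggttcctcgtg
Psmb8: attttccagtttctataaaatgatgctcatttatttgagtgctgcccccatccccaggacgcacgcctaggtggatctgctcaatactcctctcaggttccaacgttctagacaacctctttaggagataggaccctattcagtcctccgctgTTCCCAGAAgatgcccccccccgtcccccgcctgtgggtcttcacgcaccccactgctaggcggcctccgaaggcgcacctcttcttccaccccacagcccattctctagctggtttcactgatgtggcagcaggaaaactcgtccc
Both motifs were searched on both strands. The interferon-response motif was present in 4 of the 32 member genes (12.5%: Psmb3, Psmd4, Psmd9 and Psme1). By window it was present in 4 of 35 member windows and in 3.44% of all windows. Only Psme1 of these 4 was called lower at the gene level in Dicer null cells, and Psmb3 had no gene-level row. TTCNNNGAA was present in 1 member gene, Psmd2 (1 of 35 member windows), and in 8.3% of all windows. The Psmb8 window held no interferon-response motif and the Psme1 window no TTCNNNGAA. The window of Psmb9, which also fell in Dicer null cells, held neither motif.

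Some genes around the proteasome were called too. Over all gene-level rows, 11.8% were called higher and 9.17% lower in AGO2 null cells, and 11.2% and 15.7% in Dicer null cells. Of the core particle assembly genes, 4 of 5 were measured. Psmg2, a chaperone of alpha-ring assembly, was higher in both null lines (0.45 and 0.40), with adjusted p-values of 0.0095 and 0.0112, and Psmg3 was higher in AGO2 null cells (0.53, adjusted p 0.0102). Of 11 measured regulators and associated proteins, 1 was higher in AGO2 null cells, and 2 were higher and 2 lower in Dicer null cells. The shuttle protein Ubqln2 was higher in both lines (0.25 and 0.19), the proteasome-bound deubiquitinase Usp14 was higher in Dicer null cells (0.40), and Uchl5 (-0.15) and Ecpas (-0.18) were lower there. Of 6 listed genes of the segregase p97 and its cofactors 4 were measured, all of them cofactors, and p97 itself was not. None of the 4 was called by limma against the wild type. At an unadjusted limma p under 0.05 there were 0 in AGO2 null cells and 1, lower, in Dicer null cells. The ubiquitin-activating enzyme Uba6, the 1 gene measured of its list of 6, was higher in both lines (0.38 and 0.28).

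Among 7 measured regulators of proteasome gene transcription, Nfe2l3, a relative of NRF1, had the largest difference. Nfe2l3 measured 7.01, 6.75 and 6.80 in wild-type, 8.95, 9.30 and 8.90 in AGO2 null and 9.18, 9.23 and 9.23 in Dicer null samples. Both null lines lay far above the wild type, by 2.20 ± 0.11 (adjusted p 9.74e-06) and 2.36 ± 0.11 (3.27e-06). Nfe2l1, which encodes NRF1, did not pass in AGO2 null cells (0.03) and was lower in Dicer null cells (-0.24, adjusted p 0.00447). Nfe2l2, which encodes NRF2, was lower in Dicer null cells (-0.43), and Ngly1, the deglycosylase that activates NRF1, was higher in AGO2 null (0.35) and lower in Dicer null cells (-0.63). Their part in the proteasome values was not tested.

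The null lines were also set against each other. AGO2 null cells were higher than Dicer null cells in 6 of the 32 genes (Psmd10, Psmd8, Psmb2, Psmb4, Psme1 and Psmb1) and lower in Psmc1, and 25 did not pass, with a median difference of 0.04. Over all rows 16.9% were called higher and 9.45% lower. Psmd10 differed by 0.55 ± 0.09 (adjusted p 0.00379), Psmd8 by 0.45 ± 0.06 (0.00101) and Psmb2 by 0.40 ± 0.04 (0.000257). Psmb4 measured 10.23, 10.36 and 10.32 in AGO2 null and 10.01, 9.99 and 9.87 in Dicer null samples, a difference of 0.34 ± 0.08 (adjusted p 0.0132). Its wild-type samples, at 10.28, 10.12 and 10.03, overlapped the AGO2 null group. Psmc1, the ATPase Rpt2, measured 8.49, 8.69 and 8.44 in AGO2 null and 8.93, 8.96 and 8.79 in Dicer null samples, a difference of -0.35 ± 0.09 (adjusted p 0.0253). Of the 4 genes called higher in both null lines none passed here: the difference was 0.09 for Psma7 (95% interval -0.02 to 0.20), -0.08 for Psmc2 (-0.21 to 0.04), 0.01 for Psmc6 (-0.14 to 0.17) and 0.00 for Psmd3 (-0.13 to 0.13). The groups of Psma7 and of Psmc2 did not overlap. For all 4 genes the calls in both null lines rest on the same wild-type samples. The share of all rows called higher in both null lines was not computed, so these 4 calls have no background to be set against. With quantile normalization 5 genes were higher and 6 lower, Psmc2 and Psmd3 among the lower, with a median of -0.078, and over all rows the split turned from 3935 higher and 2205 lower to 3029 and 3343. At the exon level 32 of 461 probe sets were higher and 5 lower, against 12.6% and 6.08% of all.

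Single probe sets that left a steady gene were sought with the splicing index, which subtracts from a probe set the median over its gene within each sample. A gene counted as steady below a gene-level difference of 0.5, and a probe set as leaving it at an adjusted p under 0.05 and an index difference of at least 1. In AGO2 null cells 3 of 419 member probe sets met this rule (0.716%), against 0.531% of the probe sets of all steady genes. In Dicer null cells 1 of 427 did (0.234%), against 0.371%, and between the null lines 4 of 419 did (0.955%), against 0.511%. These counts are small, and no difference between a share and its background was tested.

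The largest of these differences lay in Psma3. Its probe set 5370051 measured 7.64, 7.13 and 7.13 in wild-type, 10.90, 10.80 and 11.13 in AGO2 null and 7.87, 7.75 and 7.41 in Dicer null samples. The lowest AGO2 null sample lay 2.93 above the highest of the others, while the median of the 16 probe sets of the gene differed by 0.06 in AGO2 null cells. The index differed by 3.58 ± 0.18 (adjusted p 4.16e-05). In Psmc4, the ATPase Rpt3, probe set 5279083 measured 7.69, 7.15 and 7.54 in wild-type, 6.50, 5.97 and 6.57 in AGO2 null and 7.85, 8.08 and 7.97 in Dicer null samples. Its index differed by -1.25 ± 0.23 in AGO2 null cells (adjusted p 0.0173), a call lost without wild-type replicate 1 (-1.16).

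In Psmd2, probe set 5413028 measured 5.67, 4.62 and 5.0 in wild-type, 6.52, 6.74 and 6.82 in AGO2 null and 5.39, 5.29 and 5.84 in Dicer null samples. Its index was 1.44 ± 0.22 higher in AGO2 null cells (adjusted p 0.00818), and its values lay below the exon-level sample medians in all 9 samples. In Psmd6, the lid subunit Rpn7, probe set 4682253 measured 9.98, 9.40 and 10.09 in wild-type, 9.74, 9.85 and 9.92 in AGO2 null and 8.45, 8.31 and 8.19 in Dicer null samples. The Dicer null samples lay below all others, and the index differed by -1.57 ± 0.15 (adjusted p 0.00047).

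A further probe set, 5037994 of the catalytic subunit Psmb5, could not enter this rule because Psmb5 had no gene-level row, and was singled out after its values were seen. It measured 3.89, 4.10 and 3.91 in wild-type, 9.70, 9.63 and 9.79 in AGO2 null and 9.25, 9.28 and 9.27 in Dicer null samples. The lowest null sample lay 5.15 above the highest wild-type sample, while the median of the 8 probe sets of Psmb5 differed by 0.18 and 0.03. The position of the probe set in the gene and any sequence variant under its probes were not analysed here, nor were those of the other probe sets named. The index differed by 5.56 ± 0.10 in AGO2 null and 5.27 ± 0.10 in Dicer null cells, both with an adjusted p of 1.65e-07. Over the alternatives tried it stayed between 5.49 and 5.64 in AGO2 null and between 5.23 and 5.34 in Dicer null cells.

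**Figure D5:**
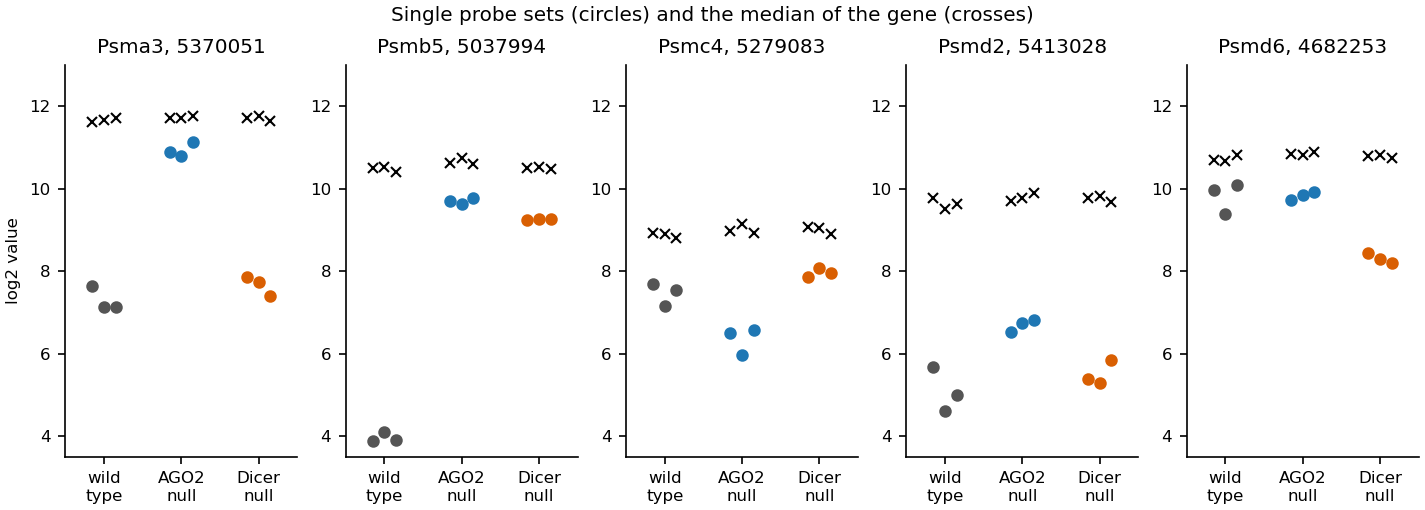
Log2 values (y axis) of 5 single probe sets (circles) and the median of all probe sets of the same gene (crosses) in each of the 9 samples, by genotype. The gene medians stay level while the Psmb5 probe set is low in the wild type, those of Psma3 and Psmd2 are high and that of Psmc4 low in AGO2 null samples, and that of Psmd6 is low in Dicer null samples.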

How the data were processed

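RNA of 9 arrays, 3 per genotype, entered as 9 gene-level and 9 exon-level samples. The authors deposited log2 values, in tables of 23332 gene-level rows and 229581 exon-level probe sets; that they are log2 was read from their range. How they were background-corrected, summarised and normalized is not given in the sources used here. The submitters' processing notes name the genome build mm8. All sample columns were used, as deposited, and no pair of samples held identical values. Symbols came from the platform annotation, updated through the RefSeq table of GRCm38.p6 (names only): 14996 gene-level rows had 1 symbol, 1019 several and 7317 none, and only rows with 1 symbol named a gene. A gene took the row of the highest mean.

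Tests used limma (version 3.58.1, under R version 4.3.3), with lmFit and eBayes without trend (genotype means as terms, all 9 samples), adjusted by Benjamini-Hochberg over all rows of a table, with calls at 0.05. The same model was run on the median of a gene's probe sets and on the splicing index, for 114158 probe sets of 7832 genes with at least 4 probe sets, leaving out genes below the median level and probe sets below the 25th percentile. The procedure was tested on simulated data. Promoter windows came from RefSeq.

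The members, gene lists, tests and alternatives were chosen with earlier results of these data known. Values in every sample are given for up to 5 called members a direction with the largest differences and separated groups, for Psmb5, Psmb6 and Psmb7, and for probe sets leaving a steady gene; of other lists up to 4 called genes are named. Further genes shown by sample (Psma5, Psme2, Psmb4, Psmc1 and Nfe2l3) and the Psmb5 probe set were added after their values were seen. Precision is limited by 3 arrays a group. Alternatives covered scaling, variance model, filters, gene summaries, replicate numbers, an offset of 50 and leaving out each sample.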

Additional observations from a re-analysis of the deposited data

Results flagged for a closer look

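For 7 proteasome genes the effects of the 2 null lines, each against the same wild-type samples, differed by the test of AGO2 null against Dicer null samples. On the log2 scale, AGO2 null minus Dicer null, the difference was 0.55 for Psmd10, 0.45 for Psmd8, 0.40 for Psmb2, 0.34 for Psmb4, 0.27 for Psme1, 0.21 for Psmb1 and -0.35 for Psmc1. In each case the groups of 3 samples did not overlap, as was so for 15 of the 32 proteasome genes and 6817 of the 14847 named genes. The Psmb1 call was lost under quantile normalization (0.11) and median centring (0.15) and without AGO2 null replicate 3 (0.17), Dicer null replicate 1 (0.18) or Dicer null replicate 3 (0.21). The Psmc1 call was lost without AGO2 null replicate 1 (-0.32) or 3 (-0.30) and without Dicer null replicate 1 (-0.33) or 2 (-0.32), and the Psmb4 call without Dicer null replicate 3 (0.30). In the median of a gene's probe sets the calls of Psmb1 (0.20) and Psmc1 (-0.35) were lost too. The Psme1 call was kept with quantile normalization, at 0.18. The causes were not tested.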

How the results depend on the processing

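Of 568 alternative values for named genes and probe sets, 521 kept direction and call, 47 kept direction but not the call, and 0 reversed. Of 207 alternative counts and medians, 188 stayed within 1.5 times the count or the replicate spread of the median. With quantile normalization the median difference of the 32 genes went from 0.112 to -0.009 in AGO2 null cells and from 0.041 to -0.078 between the null lines, where the genes called went from 7 to 11. Median centring raised the probe sets called in Dicer null cells from 31 to 55. Leaving out probe sets below the median level, so that fewer were tested, gave 82 for AGO2 null, 61 for Dicer null and 60 between the null lines, against 45, 31 and 37. Leaving out each sample in turn gave 5 to 6 genes called in AGO2 null cells, 5 to 9 in Dicer null cells (5 without Dicer null replicate 2) and 5 to 7 between the null lines. It gave 20 to 36, 13 to 36 and 13 to 39 probe sets called. The lowest counts came without AGO2 null replicate 3 (20), Dicer null replicate 1 (13) and either AGO2 null replicate 3 or Dicer null replicate 3 (13). Counts below the main one by over 1.5 times were also seen without wild-type replicate 2 (26 in AGO2 null and 18 in Dicer null cells), and without the other Dicer null replicates (14 and 16 in Dicer null cells, 14 and 17 between the null lines). Chosen after seeing the data, judging a steady gene by the median of its probe sets gave 2 probe sets leaving it in Dicer null cells, against 1, by admitting Psmb5; using 37 genes or leaving out Psma3 moved no count by over 1.5 times. The causes of these shifts were not tested.

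Same-numbered samples of different genotypes correlated between -0.097 and 0.191 in their deviations from the group means. Differently numbered samples were not compared, so these values cannot decide whether the numbers pair the samples. With a replicate block 5 genes were called in AGO2 null cells (without Psmd3), 7 in Dicer null cells (without Psmd7) and 6 between the null lines (without Psmb1). The 3 arrays a group and dim probe sets limit precision.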
